A study of Mus musculus with 37 samples.

Results

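The genes described here are 10 maternal factors for zygotic genome activation: Pou5f1, Yap1, Tead4, Ctcf, Hsf1, Nfya, Smarca4, Trim24, Trim28 and Npm2. They were chosen by gene symbol and make up 10 of the 54752 mouse genes and 80 of the 138835 transcripts in the deposited tables. 9 of the 10 genes passed the low-count filter in each stage comparison, and Tead4 passed in neither.

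A fully grown oocyte is largely silent in transcription through meiotic maturation, so the embryo's first transcription depends on mRNA and protein that the oocyte stored. Some of the stored products are transcription factors that bind DNA at the first activated genes, others open or organise chromatin, and others hold repeats and unneeded genes silent. Many stored mRNAs are lengthened or shortened at their poly(A) tails, translated or degraded during maturation, each on its own schedule.

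The study sequenced 37 single mouse oocytes by Smart-seq2, which primes cDNA on poly(A) tails, to compare stages of meiotic maturation at the gene and isoform level. All oocytes came from C57BL/6 females aged 6 to 8 weeks that had received 5 IU of PMSG. GV oocytes, arrested with an intact germinal vesicle, were taken from the ovary 48 h after PMSG, with 6 oocytes in batch A and 10 in batch B. The 6 MII oocytes, all in batch A, were ovulated and collected 15 h after 5 IU of hCG. The 15 MI oocytes, all in batch B, were denuded GV oocytes matured for 8 h in M16 medium. MI and MII oocytes were therefore obtained by different routes and were never in the same batch, so each stage was compared only with the GV oocytes of its own batch. Zonae and polar bodies had been removed. Each oocyte is a separate sample, but the labels tie no oocyte to an animal, so the p-values measure only the spread between these oocytes. Because priming was on poly(A) tails, fewer molecules and shorter tails of an mRNA cannot be told apart.

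The RSEM counts assigned to genes ranged from 7509875 to 12648629 per oocyte in GV batch A, from 9930485 to 13988444 in MII, from 7184205 to 17724506 in GV batch B and from 2709280 to 19390128 in MI. MI oocyte 15 was the shallowest library, with 12505 genes detected at 1 count or more. The number of genes detected lay between 19273 and 22244 in 5 MII oocytes and was 29518 in MII oocyte 1. In MI oocytes 4, 8 and 9 the HTSeq count of a gene was at the median 1.13, 1.11 and 1.07 times its RSEM count, and in the remaining oocytes this ratio lay between 1.98 and 2.20. Levels are given as CPM, counts per 1000000 counts of the oocyte, after TMM normalisation within a batch, so a level in batch A and a level in batch B were scaled separately. Levels given as CPM of HTSeq counts are per 1000000 HTSeq counts of genes in the oocyte, without TMM normalisation, while the fits on HTSeq counts used it.

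All 12 oocyte markers, among them the zona proteins Zp1 to Zp3 and the growth factors Gdf9 and Bmp15, had a median over 1 CPM in every group. Their summed level had a median of 14354 CPM in GV batch A, 8950 CPM in MII, 5187 CPM in GV batch B and 4486 CPM in MI, and Gdf9 was the most abundant in each. At MII 7 of the 12 were lower by adjusted p, against 11.5% of all genes, with a list median of −0.68 on the log2 scale, beside 0.01 for all genes. The 16 granulosa and cumulus markers summed to a median of 30.7, 21.5, 23.7 and 16.2 CPM in the same order, with Cyp19a1 the most abundant throughout. Ptx3 was at 0 in GV batch A, Amh, Foxl2 and Ptx3 were at 0 in GV batch B, and Amh, Foxl2, Ptx3 and Wt1 were at 0 in MI. The 7 blood and immune markers summed to a median of 0.749, 1.38, 5.19 and 3.30 CPM, with Cd68 the most abundant in batch A and Hbb-bs in batch B. Lyz2 was at 0 in both GV groups and in MI, and Hba-a2 in MI. The highest sum of the blood list was 17.3 CPM, in an MII oocyte. The part of these markers in the results was not tested.

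Levels of the members were compared per kilobase of coding transcripts. Npm2, a histone chaperone of the oocyte nucleus that acts on sperm chromatin and nucleoli after fertilisation, was the most abundant in GV batch A, at 348 to 494 CPM per kilobase (median 368), and overlapped no other member. Nfya followed at a median of 36.0 CPM per kilobase, then Trim24 at 31.6, Yap1 at 23.9, Hsf1 at 21.2, Pou5f1 at 21.1, Trim28 at 18.5 and Ctcf at 16.7. From Nfya to Ctcf each range of oocytes overlapped the next in the order. Smarca4 was below them at a median of 4.81 CPM per kilobase without overlapping Ctcf, and Tead4 had a median of 0 in RSEM counts.

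The order in MII was Npm2 at a median of 167 CPM per kilobase, Nfya 52.1, Trim28 31.3, Hsf1 30.9, Yap1 30.2, Pou5f1 20.5, Ctcf 18.9, Trim24 16.0 and Smarca4 5.80. There Npm2 and Smarca4 overlapped no other member, Nfya overlapped only Yap1, and from Trim28 to Trim24 each range overlapped the next. Trim24 was in place 3 of the order in GV batch A and in place 8 in MII. In batch B the first places were again Npm2 and Nfya, at medians of 174 and 66.5 CPM per kilobase in GV and 155 and 73.8 in MI. Ctcf came next there (32.6 in GV, 25.2 in MI), whereas Trim28 was the lowest of the 9 tested members, at 4.26 in GV and 3.83 CPM per kilobase in MI. Neighbours from Ctcf to Trim28 overlapped in both groups of batch B, while Npm2 and Nfya overlapped no other member in GV. In MI Npm2 overlapped only Nfya, and Nfya also overlapped Ctcf and Yap1.

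**Figure D1:**
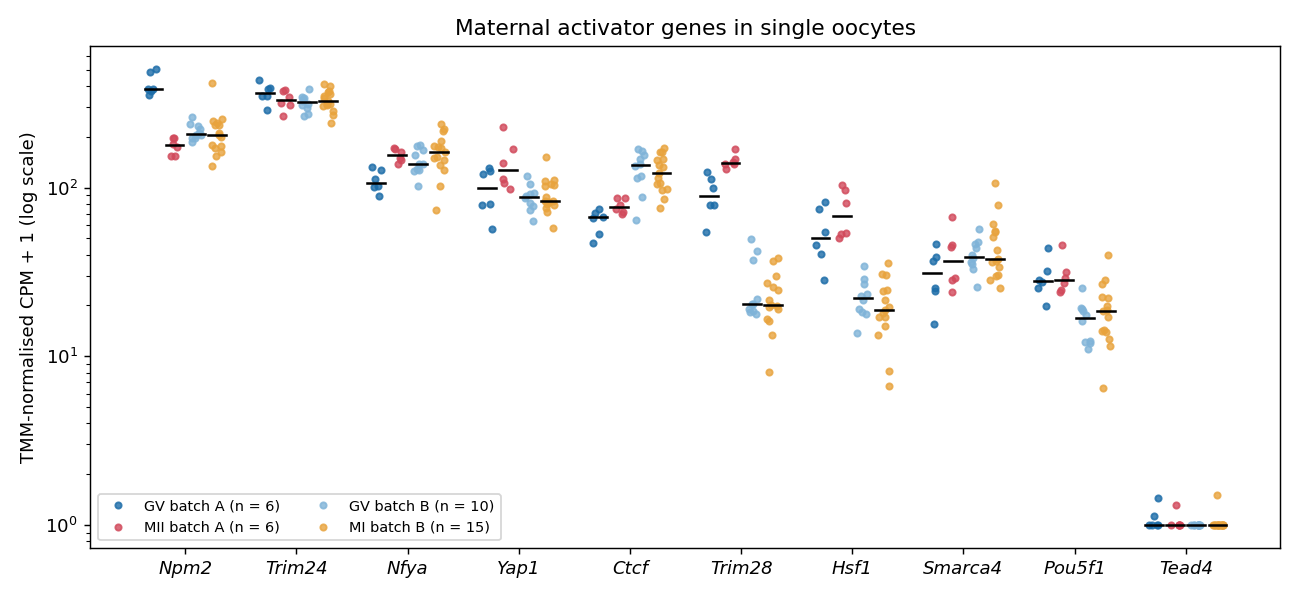
TMM-normalised CPM of RSEM counts plus 1 on a log axis for the 10 genes, with 1 point per oocyte and a black bar at the median of each group. The 6 MII points of Npm2 (153 to 196 CPM) lie below all 6 GV points of batch A (352 to 505 CPM), and Tead4 lies at or near 0 CPM in every group.

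Between GV and MII in batch A, Npm2 fell by more than 2-fold, and Nfya and Trim28 rose by less than that on TMM-normalised counts but lay below 0 when scaled to spike-ins. Npm2 was the 1 of 9 tested members called lower, where 6.32% of the 12929 genes tested were. No member was called higher by edgeR, where 2.15% of all genes were. DESeq2 also called 0 members higher, where it called 273 of all genes. At an unadjusted p under 0.05 in edgeR 4 members were higher and 1 was lower, where 4441 of all genes passed in either direction. By adjusted p alone 2 of 9 members were higher, against 9.06% of all genes, and 1 of 9 was lower, against 11.5%. Shares of 9 genes are coarse, and nothing is drawn from their distance to the background. Of all genes tested, 278 were called higher and 817 lower, so 25.4% of the calls were higher. That share depended on the setting: it was 48.1% without a low-count filter (895 higher, 964 lower), 13.0% on HTSeq counts (101 higher, 676 lower) and 17.8% without MII oocyte 1 (163 higher, 753 lower). The ERCC spike-ins had 44663 to 128319 counts per oocyte in GV batch A, 120280 to 143062 in MII and 0 to 32 in batch B. When the RSEM counts of batch A were scaled to the spike-ins, the calls were 131 higher and 3788 lower (3.34% higher). That scaling moved the median log2 fold change of all genes by −0.73.

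Npm2 (ENSMUSG00000047911.6, chromosome 14 from 70647302 to 70659244, minus strand, mm10) lay at 352 to 505 CPM in GV batch A, with a median of 381, and at 153 to 196 CPM in MII, with a median of 177. The ranges did not overlap, and all 6 MII oocytes were below the lowest GV oocyte. Npm2 fell by 1.24 on the log2 scale (SE 0.13, adjusted p = 1.46e-05), and the value ranged from −1.28 to −1.17 when each oocyte was left out in turn. Per 1000 spike-in counts its level was 26.1 to 73.7 in GV (median 56.1) and 11.8 to 16.3 in MII (median 12.7). Scaled to the spike-ins the log2 fold change was −1.99 (adjusted p = 2.59e-06), beside −0.72 for the median gene. On HTSeq counts it was −1.06 (SE 0.14, adjusted p = 9.19e-05), lower in 6 of 6 MII oocytes with no overlap (662 to 993 CPM of HTSeq counts in GV, 275 to 366 in MII). Npm2 overlaps Xpo7 on the same strand.

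Nearly all Npm2 counts in batch A belonged to the coding transcript Npm2-201, which held 96.8% of them in GV and 94.6% in MII. Npm2-201 lay at 347 to 492 CPM in GV (median 367) and 145 to 184 CPM in MII (median 167), without overlap, and fell by 1.29 on the log2 scale (SE 0.12, adjusted p = 9.07e-05, lower in 6 of 6 MII oocytes). It was 1 of 2 member transcripts called lower among 25 tested, against 4.23% of the 22461 transcripts tested. The other annotated transcript, Npm2-202, is 649 bases long and classed as non-stop decay. Its medians were 12.4 CPM in GV and 8.02 CPM in MII, and its log2 fold change of −0.52 (SE 0.32, adjusted p = 0.365) did not pass. Npm2-202 held 3.15% and 5.41% of the gene's counts in GV and MII of batch A, and 19.6% and 26.4% in GV and MI of batch B. MI oocyte 6 had its highest level, 209 CPM. Shares in the batches were not tested against each other.

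15 of 16 other nucleoplasmins and histone chaperones were tested in batch A, and the 4 that passed were higher, where 9.06% of all genes were. The median of the list was 0.22 on the log2 scale, beside 0.01 for all genes. The H3.3 chaperone subunit Atrx had medians of 623 CPM in GV and 843 CPM in MII (log2 0.51, SE 0.13, adjusted p = 0.0108, higher in 6 of 6), and Nap1l1, an H2A–H2B chaperone, passed at 0.44 (adjusted p = 0.0119, higher in 6 of 6). Cabin1 and Asf1b passed with 0.81 (adjusted p = 0.0177, higher in 6 of 6) and 0.62 (adjusted p = 0.0234, higher in 5 of 6). Scaled to the spike-ins none of the 4 passed, with Atrx, Nap1l1 and Asf1b at −0.23, −0.32 and −0.10 and Cabin1 at 0.06 (adjusted p = 0.879). Atrx (adjusted p = 0.0889) and Nap1l1 (adjusted p = 0.134) did not pass without a low-count filter, Atrx (0.0665) and Asf1b (0.147) did not with batch in the model, and Asf1b did not without MII oocyte 6 (0.0524).

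Nfya (ENSMUSG00000023994.13, chromosome 17 from 48386885 to 48409906, minus strand), the DNA-binding subunit of the CCAAT-box factor NF-Y, lay at 88.4 to 132 CPM in GV batch A (median 106) and 136 to 170 CPM in MII (median 154). All 6 MII oocytes were above the highest GV oocyte. On TMM-normalised counts Nfya rose by 0.50 on the log2 scale (SE 0.13, adjusted p = 0.0125), whereas scaled to the spike-ins it was at −0.24 (adjusted p = 0.402). Without a low-count filter the adjusted p was 0.0822 with a log2 fold change of 0.47, and with all 37 oocytes in a model with batch it was 0.0639 with 0.55. Of the other NF-Y subunits Nfyc passed as lower, where 11.5% of all genes did, at −0.37 (SE 0.12, adjusted p = 0.0372, lower in 6 of 6 without overlap), and Nfyb did not pass. Nfyc did not pass on HTSeq counts (−0.29, adjusted p = 0.157), without a low-count filter (adjusted p = 0.144), without CT010467.1 (0.0541) or with batch in the model (0.498). It also did not pass without GV oocyte 4, 5 or 6 or any 1 of MII oocytes 1 to 5 (adjusted p 0.0512 to 0.101, log2 −0.39 to −0.30).

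Pou5f1 (ENSMUSG00000024406.16, chromosome 17 from 35506018 to 35510772, plus strand), the POU-domain pluripotency factor OCT4, lay at 18.8 to 42.6 CPM in GV batch A (median 27.0) and at 23.0 to 44.3 CPM in MII (median 27.1). The groups overlapped almost completely, with 3 of 6 MII oocytes above the GV median. The log2 fold change was 0.04 (SE 0.21, adjusted p = 0.908), and −0.67 (adjusted p = 0.0621) when scaled to the spike-ins. It changed sign when GV oocyte 2, GV oocyte 5 or MII oocyte 5 was left out, over a range of −0.11 to 0.19. The ratio of HTSeq to RSEM counts had a median of 0.968 to 1.01 across the groups for Pou5f1, against about 2 for most members. Gm19553 lies antisense within Pou5f1, and 15.9% of the 50-base stretches of Pou5f1-201 also occur in Gm19553 or Gm5712. The counts of Pou5f1 are uncertain, and the part of these shared stretches in them was not tested.

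Of the other POU and pluripotency factors, 9 of 15 were tested in batch A, with 2 higher (9.06% of all genes) and 1 lower (11.5%) by adjusted p and a list median of 0.37 on the log2 scale, beside 0.01. The orphan receptor Esrrb fell from a median of 57.6 to 27.4 CPM (log2 −1.08, SE 0.14, adjusted p = 0.000103), with all 6 MII oocytes below the lowest GV oocyte. Tfap2c, an AP-2 factor, had 0.57 (adjusted p = 0.0217, higher in 6 of 6) and the zinc finger factor Sall4 had 0.47 (adjusted p = 0.0316, higher in 6 of 6). Scaled to the spike-ins, Tfap2c and Sall4 were at −0.17 and −0.28. Neither passed without a low-count filter (adjusted p = 0.0592 and 0.117) or with batch in the model (0.0807 and 0.0846), and Tfap2c did not pass without GV oocyte 5 (0.0502). Sall4 did not pass on HTSeq counts (0.0586) or without any 1 of GV oocytes 2, 4 and 5 and MII oocytes 1, 4 and 5 (0.0578 to 0.0740).

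Hsf1 (ENSMUSG00000022556.11, chromosome 15 from 76477422 to 76501913, plus strand), the main heat shock transcription factor, lay at 27.4 to 80.7 CPM in GV batch A (median 49.0) and 49.5 to 103 CPM in MII (median 66.7). The ranges overlapped although all 6 MII oocytes were above the GV median, and the log2 fold change of 0.44 (SE 0.26, adjusted p = 0.242) did not pass; scaled to the spike-ins it was −0.25. Among the other heat shock factors and chaperones 13 of 14 were tested in batch A, with a list median of −0.05, beside 0.01 for all genes, and the 4 that passed by adjusted p were chaperones and were lower, where 11.5% of all genes were. Hspa4 fell by 0.81 (SE 0.15, adjusted p = 0.00135, lower in 6 of 6 without overlap) and Hsp90aa1 by 0.54 (adjusted p = 0.00757, lower in 6 of 6 without overlap). Hspa8 fell by 0.68 (adjusted p = 0.00687) and Hsph1 by 0.69 (adjusted p = 0.00768), each lower in 6 of 6. With batch in the model Hsp90aa1 did not pass (−0.49, adjusted p = 0.0613).

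Yap1 (ENSMUSG00000053110.13, chromosome 9 from 7931999 to 8004596, minus strand), the Hippo pathway co-activator that binds TEAD factors, lay at 55.7 to 129 CPM in GV batch A (median 98.8) and 97.2 to 229 CPM in MII (median 125). These ranges overlapped, and the log2 fold change of 0.54 (SE 0.24, adjusted p = 0.119, above the GV median in 5 of 6) did not pass; scaled to the spike-ins it was −0.23, and without MII oocyte 5 it was 0.35 on TMM-normalised counts. Gm20416 overlaps Yap1 on the other strand. Tead4 (ENSMUSG00000030353.15, chromosome 6 from 128224288 to 128300823, minus strand), a DNA-binding partner of YAP1, had RSEM counts in 2 of 6 GV and 1 of 6 MII oocytes of batch A, in 0 of 10 GV oocytes of batch B and in 1 of 15 MI oocytes, and HTSeq counts in 5, 3, 2 and 4 oocytes of these groups. The highest RSEM count was 7, or 0.495 CPM, and the highest HTSeq count was 33, or 2.22 CPM of HTSeq counts, both in MI. In GV batch B an RSEM count of 0 allows 0.169 to 0.418 CPM per oocyte, for counting error only, while the HTSeq counts there reached 6, or 0.499 CPM of HTSeq counts. Tead4 passed the low-count filter in neither table, and the processed pseudogene Gm21893 overlaps it on the other strand.

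In the TEAD and Hippo list 15 of 18 other genes were tested in batch A, with 2 higher and 1 lower by adjusted p, against 9.06% and 11.5% of all genes, and a median of 0.27, beside 0.01. Wwtr1, which codes for the YAP1 paralogue TAZ, fell from a median of 6.40 to 1.71 CPM (log2 −1.78, SE 0.33, adjusted p = 0.00166), and all 6 MII oocytes were below the lowest GV oocyte. The upstream kinase Taok1 had 0.48 (adjusted p = 0.0150, higher in 6 of 6), but −0.28 when scaled to the spike-ins and an adjusted p of 0.0935 without a low-count filter. Nf2, the upstream Hippo activator merlin, had 0.62 (adjusted p = 0.0414, higher in 6 of 6), but −0.10 when scaled to the spike-ins. It did not pass without any 1 of GV oocytes 1, 2, 4 and 5 and MII oocytes 1, 4 and 5 (log2 0.52 to 0.61, adjusted p 0.0677 to 0.105).

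Ctcf (ENSMUSG00000005698.15, chromosome 8 from 105636568 to 105682922, plus strand), the insulator protein that anchors chromatin loops, lay at 46.0 to 74.1 CPM in GV batch A (median 65.7) and 68.6 to 85.2 CPM in MII (median 75.8). All 6 MII oocytes were above the GV median, yet the ranges overlapped and the log2 fold change of 0.31 (SE 0.14, adjusted p = 0.132) did not pass; scaled to the spike-ins it was −0.44. Ctcf overlaps Agrp and non-coding genes on the other strand, but Ctcf-201 and Ctcf-204 share no 50-base stretch with a transcript of another gene. Of the CTCF and cohesin partners 13 of 14 were tested, with 4 higher and 1 lower by adjusted p, against 9.06% and 11.5% of all genes, and a median of 0.14, beside 0.01. The cohesin kleisin Rad21 had medians of 59.9 CPM in GV and 104 CPM in MII (log2 0.71, SE 0.13, adjusted p = 0.00140, higher in 6 of 6 without overlap), and −0.05 when scaled to the spike-ins. Smc3 and Stag1 passed as well, at 0.57 (adjusted p = 0.0163) and 0.63 (adjusted p = 0.0206), both higher in 6 of 6, and were at −0.16 and −0.12 when scaled to the spike-ins. Smc1a, the partner of SMC3 in the ring, fell by 0.71 (adjusted p = 0.00366, lower in 6 of 6). With batch in the model Smc1a (adjusted p = 0.0700) and Stag1 (0.125) did not pass, and Stag1 also did not without a low-count filter (0.0727) or without MII oocyte 4 (0.0573).

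Smarca4 (ENSMUSG00000032187.16, chromosome 9 from 21616169 to 21704230, plus strand), the BRG1 ATPase of the SWI/SNF remodelling complex, lay at 14.5 to 45.3 CPM in GV batch A (median 30.1) and 23.1 to 66.1 CPM in MII (median 35.7). The groups overlapped, and the log2 fold change of 0.36 (SE 0.28, adjusted p = 0.396, above the GV median in 3 of 6) did not pass; scaled to the spike-ins it was −0.36. It was 0.14 without MII oocyte 5 and 0.22 without GV oocyte 5. Among 16 of 18 other SWI/SNF subunits tested, 4 passed as higher and 3 as lower, where 9.06% and 11.5% of all genes did, and the list median was −0.02, beside 0.01. Brd9, a subunit of the non-canonical complex, fell from a median of 21.7 to 12.5 CPM (log2 −0.78, SE 0.17, adjusted p = 0.00472), lower in 6 of 6 without overlap. Smarca2, the alternative ATPase BRM, fell by 0.46 (adjusted p = 0.00941, lower in 6 of 6 without overlap), and the core subunit Smarcb1 fell by 0.64 (adjusted p = 0.0188, lower in 6 of 6). Brd7 had 0.62 (adjusted p = 0.00501, higher in 6 of 6 without overlap), and −0.12 when scaled to the spike-ins. With batch in the model Brd9 (adjusted p = 0.0560), Smarca2 (0.271) and Smarcb1 (0.0801) did not pass. Smarca2 also did not pass without a low-count filter (0.0641), nor Smarcb1 on HTSeq counts (0.0559).

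Trim28 (ENSMUSG00000005566.14, chromosome 7 from 12999114 to 13031035, plus strand), the KAP1 co-repressor recruited by KRAB zinc finger proteins, lay at 53.4 to 123 CPM in GV batch A (median 88.0) and 128 to 168 CPM in MII (median 139). All 6 MII oocytes were above the highest GV oocyte. On TMM-normalised counts Trim28 rose by 0.66 on the log2 scale (SE 0.17, adjusted p = 0.0141), whereas scaled to the spike-ins it was at −0.10 (adjusted p = 0.766). With all 37 oocytes in a model with batch, the log2 fold change was 0.71 and the adjusted p 0.116. Zbtb45 overlaps Trim28 on the other strand. Of the TRIM28 and KRAB silencing partners 12 of 13 were tested, with 3 higher and 1 lower by adjusted p, against 9.06% and 11.5% of all genes, and a median of 0.28, beside 0.01. The maintenance DNA methyltransferase Dnmt1 fell from a median of 1144 to 644 CPM (log2 −0.89, SE 0.16, adjusted p = 0.00102), lower in 6 of 6 without overlap. Atf7ip, Trim33 and the H3K9 methyltransferase Setdb1 passed at 0.44 (adjusted p = 0.0169), 0.48 (adjusted p = 0.0227) and 0.39 (adjusted p = 0.0449), each higher in 6 of 6. Scaled to the spike-ins these were at −0.31, −0.29 and −0.35. None of the 3 passed without a low-count filter (adjusted p 0.132, 0.108 and 0.191) or with batch in the model (0.103, 0.0530 and 0.0881), and Trim33 did not pass without MII oocyte 2 (0.0553). Setdb1 did not pass on HTSeq counts (0.0589), and of the 12 fits that left out 1 oocyte it passed only in that without GV oocyte 2 (0.0539 to 0.0881 in the other 11).

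**Figure D2:**
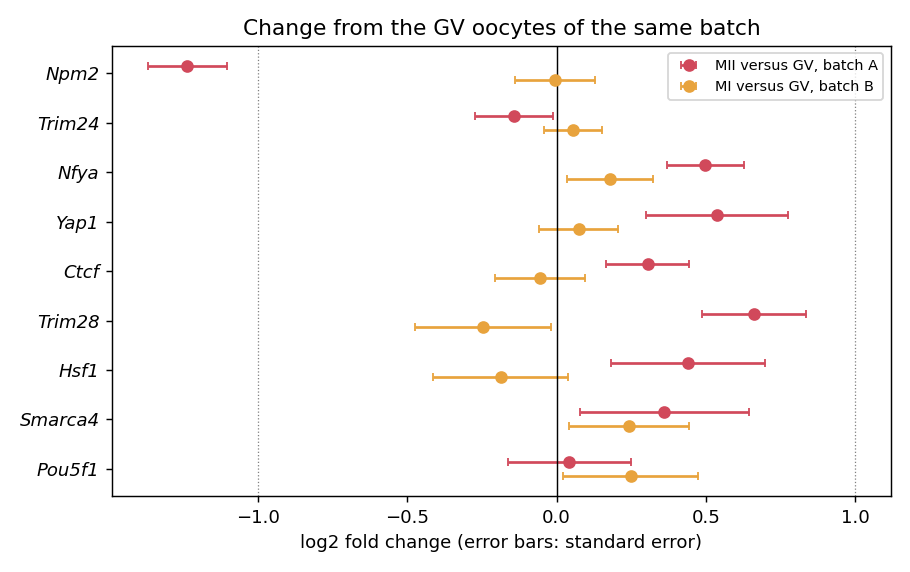
Log2 fold change from the GV oocytes of the same batch for the 9 tested genes on TMM-normalised counts, with 1 standard error on either side and dotted lines at a 2-fold change. Npm2 at −1.24 in batch A is the 1 point beyond 2-fold, and when batch A is scaled to the spike-ins every gene there is below 0.

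Trim24 (ENSMUSG00000029833.17, chromosome 6 from 37870811 to 37966296, plus strand), a chromatin-reading co-regulator of nuclear receptors, gave different results for the gene total and for its coding transcripts. The total RSEM count lay at 288 to 432 CPM in GV batch A (median 364) and 263 to 378 CPM in MII (median 330). The ranges overlapped, and the log2 fold change of −0.14 (SE 0.13, adjusted p = 0.477, below the GV median in 4 of 6) did not pass. It was −0.09 without GV oocyte 2 and also with batch in the model, and −0.08 without MII oocyte 5. Scaled to the spike-ins it was −0.89 (adjusted p = 0.00327), from 27.4 to 69.6 counts per 1000 spike-in counts in GV (median 45.3) to 22.1 to 27.0 in MII (median 25.3), without overlap.

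Most of that total was assigned to Trim24-208, a 3048-base transcript annotated as a retained intron with no reading frame. Trim24-208 held 65.9% of the gene's counts in GV batch A and 78.9% in MII, at medians of 237 and 267 CPM, and its log2 fold change of 0.10 (SE 0.18, adjusted p = 0.794) did not pass. The coding transcript Trim24-203 lay at 51.6 to 113 CPM in GV batch A (median 92.1) and at 34.8 to 52.0 CPM in MII (median 43.2). It fell by 1.02 on the log2 scale (SE 0.18, adjusted p = 0.00424), lower than the GV median in 6 of 6 MII oocytes and below the lowest GV oocyte in 5. The groups overlapped between 51.6 and 52.0 CPM. Without MII oocyte 1 the log2 fold change was −0.99 (adjusted p = 0.0137), just inside 2-fold. The longer coding transcript Trim24-201 had medians of 34.2 and 23.2 CPM (log2 −0.63, SE 0.20, adjusted p = 0.0674, below the GV median in 6 of 6) and did not pass in edgeR, while DESeq2 passed it (−0.64, adjusted p = 0.0256).

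All coding Trim24 transcripts together lay at 87.0 to 152 CPM in GV batch A (median 125) and at 59.8 to 78.9 CPM in MII (median 63.2), without overlap. Their share of the gene's counts had a median of 35.4% in GV and 20.5% in MII. In the test of transcript usage Trim24 had an adjusted p of 0.178 by the Simes rule (0.377 without MII oocyte 1) and 0.00307 by the F test, with the coding share below the GV median in 6 of 6 MII oocytes. By the Simes rule 0 of 8 members with more than 1 tested transcript passed in edgeR, against 2.39% of 5477 genes, and Trim24 was the 1 with a Simes p under 0.05 before adjustment, at 0.00642. By the F test 1 of 8 passed, against 5.51%.

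HTSeq counts, made without assigning counts to transcripts, gave Trim24 at 141 to 257 CPM of HTSeq counts in GV batch A (median 206) and 96.8 to 125 in MII (median 109), without overlap. On these counts it fell by 0.70 on the log2 scale (SE 0.16, adjusted p = 0.00601, lower in 6 of 6), and 2 of 9 members, Trim24 and Npm2, passed as lower, against 8.79% of all genes. The ratio of HTSeq to RSEM counts of Trim24 had a median of 0.752 in GV batch A, 0.461 in MII, 0.550 in GV batch B and 0.593 in MI. Of the 50-base stretches of Trim24-208, 7.94% also occur in transcripts of 620 other genes, while Trim24-201 and Trim24-203 share none. The part of these shared stretches in the difference between the tables was not tested.

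**Figure D3:**
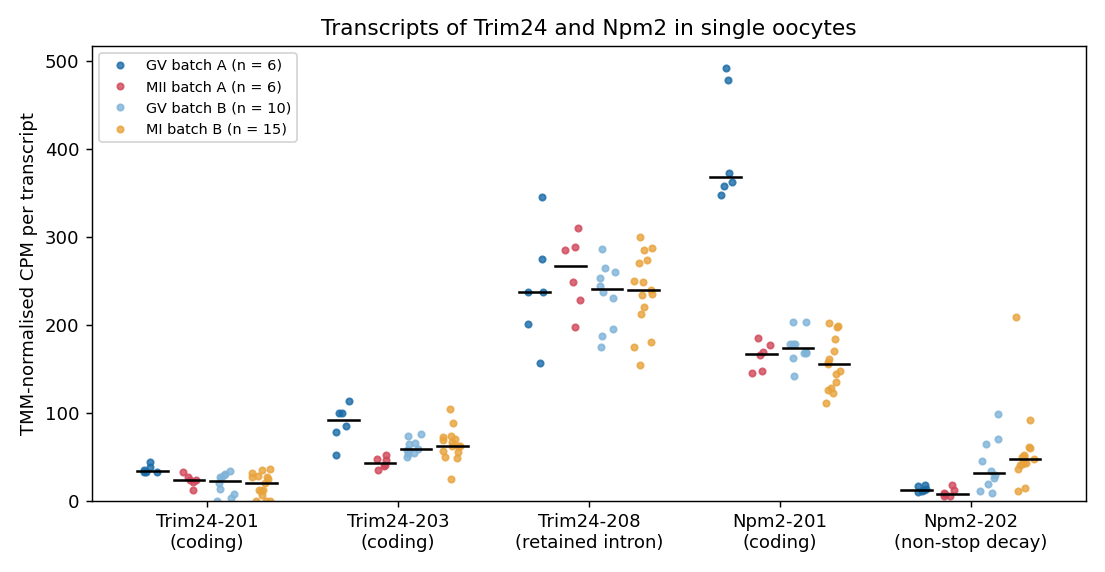
TMM-normalised CPM of 5 transcripts, with 1 point per oocyte and a black bar at the group median. Trim24-203 has medians of 92.1 CPM in GV and 43.2 CPM in MII of batch A, Trim24-208 has medians of 237 and 267 CPM, and Npm2-202 reaches 209 CPM in 1 MI oocyte.

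For the remaining members, 2 coding transcripts passed as higher by adjusted p in edgeR in batch A, against 3.49% of all transcripts. Trim28-201, with 73.0% of the gene's counts in GV and 75.2% in MII, had 0.70 on the log2 scale (SE 0.19, adjusted p = 0.0381, higher in 6 of 6), and 0.73 with an adjusted p of 0.0586 without MII oocyte 1. Nfya-212, with 32.8% and 32.5%, had 0.49 (SE 0.14, adjusted p = 0.0441, higher in 6 of 6 without overlap), and 0.47 with an adjusted p of 0.0887 without MII oocyte 1. Nfya-201 had 0.93 (SE 0.30, adjusted p = 0.0713, higher in 5 of 6) and did not pass in edgeR, while DESeq2 passed it (0.93, adjusted p = 0.0243). Spike-in scaling was not run on transcripts. Nfya-201, Nfya-202 and Nfya-212 carry 3′ UTRs of 2393 to 2404 bases, while Nfya-203 has 284. Nfya-203 held 9.93% and 9.46% of the counts of Nfya in GV and MII of batch A, and 22.1% and 19.3% in GV and MI of batch B. The nonsense-mediated decay transcript Hsf1-211 held 0.0765%, 3.68%, 19.0% and 27.9% of Hsf1 in the same order, and the coding Hsf1-205 held 85.8%, 82.3%, 59.3% and 52.2%. Ctcf-204, without a reading frame, held 3.58%, 5.22%, 12.9% and 11.8% of Ctcf. For Nfya, Hsf1 and Ctcf the larger step in these shares lay between the batches, which were not tested against each other, and no usage test within a batch passed.

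The other transcripts of the tested members with at least 10% of the counts in some group did not pass in edgeR where tested. Of the few counts of Tead4, Tead4-202 held 83.3% and Tead4-203 held 16.7% in GV batch A. Tead4-203 held 100% in MII and MI, and neither transcript was tested. In the order GV batch A, MII, GV batch B and MI, Pou5f1-201 held 97.4%, 97.9%, 96.6% and 96.4% of Pou5f1, and Ctcf-201 held 96.1%, 94.5%, 86.8% and 86.6% of Ctcf. Yap1-202 held 87.9%, 82.8%, 86.2% and 84.3% of Yap1, and Yap1-201, with a longer reading frame, held 10.8%, 16.0%, 9.04% and 11.2%. The log2 fold change of Yap1-201 at MII was 1.08 (SE 0.41, adjusted p = 0.125, above the GV median in 5 of 6). Nfya-201 held 17.3%, 24.4%, 14.7% and 13.3% of Nfya, and Nfya-202 held 34.4%, 30.3%, 24.5% and 22.8%. Smarca4 was divided among Smarca4-201 (30.8%, 32.8%, 47.6% and 43.4%), Smarca4-202 (58.2%, 56.9%, 36.3% and 32.9%) and Smarca4-204 (11.0%, 9.71%, 14.3% and 12.9%). Smarca4-203, which has no annotated 3′ UTR, held 0.0787%, 0.567%, 1.81% and 10.7%, and its log2 fold change at MI was 2.55 (SE 1.19, adjusted p = 0.670, above the GV median in 10 of 15). The retained intron Trim28-203 held 25.5%, 21.4%, 30.7% and 27.7% of Trim28, with 0.37 at MII (SE 0.22, adjusted p = 0.333, above the GV median in 6 of 6).

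Between GV and MI in batch B no member passed the test, and every range overlapped. Of 9 tested members edgeR called 0 in either direction, against 0.121% of the 12419 genes tested, and 0 passed by adjusted p alone, against 0.145%. At an unadjusted p under 0.05 the count of members was also 0, where it was 1371 of all genes tested, and DESeq2 called 0 members. The log2 fold changes lay between −0.25 for Trim28 (SE 0.23, adjusted p = 0.755, below the GV median in 8 of 15) and 0.25 for Pou5f1 (SE 0.23, adjusted p = 0.754, above the GV median in 9 of 15), which was 0.09 without MI oocytes 4, 8 and 9. Npm2 lay at 184 to 261 CPM in GV (median 207) and 134 to 413 CPM in MI (median 205), with a log2 fold change of −0.01 (SE 0.13, adjusted p = 0.993, below the GV median in 8 of 15). Nfya had medians of 137 and 162 CPM (log2 0.18, SE 0.15, adjusted p = 0.703, above the GV median in 11 of 15), and Trim24 had 319 and 327 CPM (log2 0.05, SE 0.10, adjusted p = 0.899, above in 8 of 15). Yap1, Ctcf, Hsf1 and Smarca4 had log2 fold changes of 0.07, −0.06, −0.19 and 0.24. On HTSeq counts Hsf1 was at −0.12, and over all alternatives it lay between −0.45 and −0.12. Smarca4 was at 0.40 without MI oocytes 4, 8 and 9.

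Over all genes edgeR called 11 higher and 4 lower at MI, and DESeq2 107 higher and 14 lower. Without MI oocyte 15 edgeR called 17 higher and 4 lower, and it called 33 higher and 3 lower without MI oocytes 4, 8 and 9. None of 29 member transcripts was called by edgeR in batch B, as for all 22717 transcripts tested (0.0%), of which 1615 had an unadjusted p under 0.05 and 103 were called by DESeq2. Among the members 1 transcript had an unadjusted p under 0.05, and DESeq2 called 0. Trim24-203 had medians of 58.6 CPM in GV and 62.3 CPM in MI (log2 0.07, SE 0.15, adjusted p = 0.999). Transcript usage passed for 0 of 8 members by the Simes rule in edgeR, against 0.108% of 5535 genes, and also for 0 by the F test; the smallest Simes p before adjustment was 0.217, for Npm2. Of the 117 tested genes of the 10 partner lists edgeR passed 0 at MI, 14 had an unadjusted p under 0.05, and DESeq2 passed 1. Of all 12419 genes tested, 1371 had an unadjusted p under 0.05 in edgeR, and DESeq2 passed 135 as higher and 42 as lower by adjusted p. Of the granulosa markers 2 of 4 tested were called lower at MI, where 4 of all genes were (0.0322%), and the summed level of that list had a median of 23.7 CPM in GV and 16.2 CPM in MI.

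The change at MII was then set against the change at MI in 1 model of all 37 oocytes, each relative to the GV oocytes of its own batch. Of 9 members 1 passed, Npm2, against 5.46% of the 15083 genes tested. The MII effect of Npm2 minus its MI effect was −1.16 on the log2 scale (SE 0.21, adjusted p = 0.000641), with 6 of 6 MII oocytes and 8 of 15 MI oocytes below the GV median of their batch. Without MII oocyte 1 and MI oocytes 4, 8, 9 and 15 it was −1.18 (adjusted p = 0.00201). Trim28 had the next smallest adjusted p, with a difference of 0.98 (SE 0.35, adjusted p = 0.0951), and did not pass. The other members had adjusted p values of 0.282 to 0.902. Trim24 had −0.12 (adjusted p = 0.777) on RSEM counts and −0.80 (adjusted p = 0.0251) on HTSeq counts.

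The GV oocytes of both batches also differed in level, and batch, collection and scaling cannot be told apart there. Npm2 lay at 352 to 505 CPM in GV batch A and 184 to 261 CPM in GV batch B, so the MII range of 153 to 196 CPM overlapped GV batch B. Trim28 lay at 53.4 to 123 CPM in GV batch A and 16.9 to 48.2 CPM in GV batch B, also without overlap. Ctcf was the reverse, with a median of 65.7 CPM in GV batch A and 135 CPM in GV batch B, although those ranges overlapped.

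Other activators of the embryonic genome formed a list of 21 genes. Of these 19 were tested in batch A, with 4 higher and 1 lower by adjusted p, against 9.06% and 11.5% of all genes, and a median of 0.16, beside 0.01. Dppa2, a DNA-binding activator of Dux, fell by 0.78 (SE 0.20, adjusted p = 0.0113, lower in 6 of 6). With the sample number of the labels as a replicate block it was at −0.72 and did not pass (adjusted p = 0.0510). The ISWI ATPase Smarca5 (0.44, adjusted p = 0.0148), the demethylase Kdm1a (0.62, adjusted p = 0.0156) and Nelfa (0.38, adjusted p = 0.0373) passed as higher, each in 6 of 6, and were at −0.31, −0.17 and −0.33 when scaled to the spike-ins. Smarca5 did not pass without a low-count filter (adjusted p = 0.125), and Kdm1a did not with batch in the model (0.106). Nelfa passed in neither of these (0.191 and 0.113), nor without any 1 of GV oocytes 1, 5 and 6 and the 6 MII oocytes (0.0523 to 0.0800). Of 19 genes that mark the 2-cell stage only 4 had enough counts to be tested in batch A. Tcstv1 was the 1 that passed as lower, where 11.5% of all genes did, with medians of 27.2 CPM in GV and 17.1 CPM in MII (log2 −0.83, SE 0.22, adjusted p = 0.0163, lower in 6 of 6), but it did not pass on HTSeq counts (−0.69, adjusted p = 0.0550) or with batch in the model (adjusted p = 0.123).

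The 3′ ends of the members are shown because tail length during maturation is set by sequences there, and the assay reads tailed RNA. In the coding transcript with the most counts of each gene, from the GENCODE M21 transcripts of mm10, the poly(A) signals AATAAA and ATTAAA were searched in the last 40 bases and the cytoplasmic polyadenylation elements TTTTAT and TTTTAAT in the last 100, on the transcribed strand. Of 10578 genes tested in batch A with a 3′ UTR of at least 100 bases, 76.7% had such a signal and 20.1% had at least 1 of the elements. A signal was found in 9 of 10 members, all but Tead4, and an element in 2 of 10, Yap1-202 and Nfya-212. The element and the signal overlap in Nfya-212. The 30-base windows of the members that passed a test in batch A follow, written 5′ to 3′ with these motifs in capitals.
Npm2-201: aagctcgcctagggccacAATAAAatttgc
Trim24-203: atgtaagatggcaactgcATTAAAaaaaaa
Nfya-212: caattgcttttcttTTTTAATAAAtttata
Trim28-201: ttttacttctgtggatttAATAAAaacttc
The signal starts 20 bases before the end of the transcript in Npm2-201, 26 in Trim24-203, 27 in Nfya-212 and 24 in Trim28-201. A match to these letters is a description of the sequence and not a measured site.

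After each group's mean was removed, the members' log2 CPM were set against each other over the 37 oocytes, which share library depth and batch. Over 36 pairs Pearson's r lay between −0.47, for Trim28 and Npm2, and 0.67, for Hsf1 and Trim28, with a median of 0.01. Among 7173 genes with a mean of at least 100 counts, those most like Npm2 over the 37 oocytes were Hsp90aa1 (r = 0.72), Ptma (0.68) and Nt5c2 (0.66). For Pou5f1 they included Stk3 (0.70) and Tsr3 (0.66). These correlations are given as a description without a test.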

How the data were processed

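Single C57BL/6 oocytes were sequenced by the authors, who trimmed the reads with Trim Galore (0.6.4), aligned them to mm10 with STAR (2.7.6a) together with ERCC sequences, and deposited whole-number counts per gene from HTSeq (0.12.4) and expected counts per gene and per transcript from RSEM (1.3.1). Versions are those of the submitters' processing notes, and whether HTSeq used strand is not given in the sources used here. Expected counts were rounded to whole numbers, and the 92 ERCC features were kept apart from library sizes. Gene and transcript names came from GENCODE M21, in which 54723 gene identifiers were found. Groups came from the stage and batch in the labels.

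Stages were compared within a batch with edgeR (4.0.16, R 4.3.3) quasi-likelihood tests after filterByExpr and TMM normalisation, with Benjamini-Hochberg adjustment over all genes or transcripts tested. A call required an adjusted p under 0.05 and a fold over 2, and an adjusted p under 0.05 alone was the second rule. Transcript usage was tested with diffSpliceDGE, and the MII and MI effects were compared as a contrast over 37 oocytes. Alternatives were no filter, RLE, DESeq2 (1.42.0), HTSeq counts, a replicate block, a model with batch, removal of CT010467.1, ERCC factors, the F test of usage and omission of oocytes. The omission of 5 oocytes from the contrast and of MII oocyte 1 from the usage test was chosen after seeing the data. The fits were tested on simulated counts.

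All 10 members were named. Of each partner list up to 4 genes with the smallest adjusted p in batch A were named, as were member transcripts that were called or held at least 10% of a gene's counts in a group, and Trim24-201 was added after its values were seen. Of the genes most like Pou5f1, 1 is not reported here. The members and lists were chosen with earlier results of these data known. Depth sets precision: the lowest count of a tested member in batch A was 161, for Smarca4, and in batch B 10, for Pou5f1.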

Additional observations from a re-analysis of the deposited data

Results flagged for a closer look

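In a group of 4 to 10 oocytes, a value was singled out when its gap to the nearest other value was large against the whole range of the group; chance alone does so in about 1 in 20 groups, and 35 groups were examined. Pou5f1 was high in MII oocyte 5, at 44.3 CPM, with the next MII oocyte at 30.7 CPM. MII oocyte 1 had 29518 genes detected, with the next at 22244.

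The remaining results are named here because the change at MII in batch A differed from the change at MI in batch B in the test of that difference. The MII effect minus the MI effect of Npm2 was −1.16 on the log2 scale (adjusted p = 0.000641). Among the chaperones the difference was −0.98 for Hspa4 (adjusted p = 0.00680), −0.62 for Hspa8 (adjusted p = 0.0309), −0.67 for Hsp90aa1 (adjusted p = 0.0426) and −0.83 for Hsph1 (adjusted p = 0.0266). Of the SWI/SNF subunits Brd9 had −1.02 (adjusted p = 0.0336), Smarca2 −0.87 (adjusted p = 0.0329) and Smarcb1 −0.89 (adjusted p = 0.0317). Dnmt1 had −1.02 (adjusted p = 0.00768), Smc1a −1.04 (adjusted p = 0.0214) and Dppa2 −0.85 (adjusted p = 0.0406), and Nf2 had 0.89 (adjusted p = 0.0291). In batch A all 6 MII oocytes lay on the same side of the GV median for each of these genes. The partner genes among them had been picked for a small adjusted p in batch A, and the same oocytes enter the difference. Both the agreement of the oocytes and the small p of the difference were thereby favoured, and neither is further support. Of all 15083 genes tested, 5.46% passed the test of the difference. The change of Nf2 at MII alone did not pass when any 1 of 7 oocytes was left out (adjusted p 0.0677 to 0.105). With batch in the model the change at MII alone did not pass for Brd9 (adjusted p = 0.0560), Smarca2 (0.271), Smarcb1 (0.0801), Hsp90aa1 (0.0613) or Smc1a (0.0700). Smarca2 was at 0.49 on the log2 scale at MI (adjusted p = 0.223).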

How the results depend on the processing

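Of 1079 values recomputed under the alternatives for 107 results, 916 kept their direction and side of the threshold, or stayed within 1.5 times for a count. A further 108 kept the direction but no longer passed, 6 newly passed, 33 changed sign and 16 counts moved by more than 1.5 times. Npm2 kept its call at MII in batch A under every alternative run, over −1.99 to −1.06 on the log2 scale.

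The count of genes called in batch A was 1095 and became 1859 without a filter, 653 with batch in the model and 3919 with spike-in scaling, and it was 842 to 1246 when 1 oocyte was left out. In batch B the count of 15 became 40 without a filter, 121 in DESeq2, 107 with batch in the model, 36 without MI oocytes 4, 8 and 9, and 0 on HTSeq counts both with those oocytes (927 genes at an unadjusted p under 0.05) and without them (885). DESeq2 called 103 transcripts in batch B where edgeR called 0. The 823 genes whose MII and MI effects differed became 319 on HTSeq counts, 1600 without a filter and 536 without MII oocyte 1 and MI oocytes 4, 8, 9 and 15. The 131 genes with a change of transcript usage in batch A became 302 with the F test, and 121 without MII oocyte 1. The 1252 transcripts called in batch A became 1003 without MII oocyte 1.

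Spike-in scaling turned the sign in batch A of Pou5f1 (−0.67), Yap1 (−0.23), Ctcf (−0.44), Hsf1 (−0.25), Nfya (−0.24), Smarca4 (−0.36) and Trim28 (−0.10), and of Brd7 (−0.12), Taok1 (−0.28), Nf2 (−0.10), Atf7ip (−0.31), Trim33 (−0.29), Setdb1 (−0.35), Rad21 (−0.0531), Smc3 (−0.16), Stag1 (−0.12), Atrx (−0.23), Nap1l1 (−0.32), Asf1b (−0.10), Tfap2c (−0.17), Sall4 (−0.28), Smarca5 (−0.31), Kdm1a (−0.17) and Nelfa (−0.33). By its construction that scaling shifts all genes by nearly the same amount, −0.77 to −0.69 for the 9 members. In batch B Npm2 became 0.0483 without MI oocytes 4, 8 and 9 and 0.0597 on HTSeq counts without them, and Nfya-201 became 0.0712 without MI oocyte 15. The difference of effects for Smarca4 became −0.00878 without the 5 omitted oocytes. Pou5f1 in batch A ranged from −0.11 to 0.19 when 1 oocyte was left out, and Smarca4-204 became −0.10 without MII oocyte 1. The cause was not tested.

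With the sample number of the labels as a replicate block, the count of genes called was 886 in batch A and 0 in batch B (992 at an unadjusted p under 0.05), the count of transcripts called in batch A was 532, and Ctcf in batch B became 0.0205. Nfya in batch A had an adjusted p of 0.0596 with a log2 fold change of 0.51 under the block, and Trim24-203 −0.99 with 0.0291. Trim28-201 (0.74, adjusted p = 0.0973) and Nfya-212 (0.50) did not pass there, and Nfya-201 did (0.95, adjusted p = 0.0413). Of the 32 named partner genes 18 did not pass under the block (adjusted p 0.0510 to 0.129), and 9 did not pass without some single oocyte. By the same rule of adjusted p alone, 1172 of all genes were higher and 1490 lower in batch A, and 597 and 990 under the block. The labels do not say whether equal numbers pair oocytes. The correlation of same-numbered oocytes' deviations ranged from −0.50 to 0.46 in batch A and from −0.34 to 0.26 in batch B, and in batch A 2 of 6 numbers correlated best with their own. Correlations over so few oocytes cannot settle whether same-numbered oocytes shared handling or an animal.

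The members are expressed at levels where counting error is small in batch A, but Tead4 has few counts in either table. ERCC counts were at most 32 per oocyte in GV batch B and 25 in MI. No scaling to a fixed RNA amount was therefore possible for MI. The HTSeq and RSEM tables differ for Trim24, Pou5f1 and Tead4, and strand use is not given. The labels tie no oocyte to an animal, and the spread between animals was not measured.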
